A study of Mus musculus with 6 samples.

Results

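The 38 genes described here encode the machinery that takes a cell from G2 through mitosis to the separation of its daughters. They were chosen by symbol from what their products do, at a time when earlier results of these data were known. Each of the 38 was found in the deposited table of 21899 genes and passed the filter on low counts that left 12135 genes for testing. In C2C12 cells given 5-fluorouracil (5-FU), their mRNA levels lay close to those of control cells. Mki67, the gene of the Ki-67 protein that coats mitotic chromosomes, was the only one of the 38 to pass the threshold, at 1.58 times the control level. Cenpe and Cenpf had fold changes of similar size, 1.56 and 1.64, with wider spread between libraries, and did not pass.

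C2C12 is a mouse muscle precursor line that divides as myoblasts and can fuse into myotubes; the labels call the cells myocytes of wild type genotype. The libraries fall into 3 from cells given phosphate-buffered saline (PBS) and 3 from cells given 5-FU at 5 µg per L for 24 h, a dose the series describes as metronomic, meaning low and sustained. 5-FU is a pyrimidine analogue whose products block thymidylate synthase and enter RNA and DNA. Sample titles name C2C12 throughout and were followed, although 5-FU replicates 2 and 3 carry other final digits in their line names. Whether replicates came from separate cultures is not in the labels, and a p-value here therefore reflects only library-to-library spread, which may be technical.

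Entry into mitosis is driven by Cdk1 bound to B-type cyclins, which CDC25 phosphatases switch on and the anaphase-promoting complex switches off by marking cyclin B and securin for destruction. Genes for this machinery are transcribed in a wave that peaks in G2 and M. Many of their promoters carry a cell cycle genes homology region (CHR), bound by the MuvB core through LIN54, near CCAAT boxes bound by NF-Y. In resting or p53-arrested cells MuvB belongs to the repressive DREAM complex, and in dividing cells it works with B-MYB and FOXM1. In muscle precursors this programme is shut down as cells leave the cycle to differentiate.

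The promoters of 4 abundant members are shown because they carry the sequence features that the group shares. They are RefSeq sequences of build GRCm38.p6, from 250 bases before to 50 bases after the annotated start, and are written along the gene's own strand. Capitals mark the CHR core TTTGAA and the CCAAT box, or their reverse complements TTCAAA and ATTGG. Ube2c lies on the plus strand at chr2:164769679-164769978, Cdk1 on the minus strand at chr10:69352863-69353162, Cdc20 on the minus strand at chr4:118437294-118437593 and Cenpa on the plus strand at chr5:30666636-30666935.
Ube2c: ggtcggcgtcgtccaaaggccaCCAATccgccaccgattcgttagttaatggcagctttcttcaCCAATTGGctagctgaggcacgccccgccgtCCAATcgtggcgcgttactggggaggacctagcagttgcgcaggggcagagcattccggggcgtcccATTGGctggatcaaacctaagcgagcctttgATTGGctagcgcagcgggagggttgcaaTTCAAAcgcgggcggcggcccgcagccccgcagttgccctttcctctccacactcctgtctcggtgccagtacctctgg
Cdk1: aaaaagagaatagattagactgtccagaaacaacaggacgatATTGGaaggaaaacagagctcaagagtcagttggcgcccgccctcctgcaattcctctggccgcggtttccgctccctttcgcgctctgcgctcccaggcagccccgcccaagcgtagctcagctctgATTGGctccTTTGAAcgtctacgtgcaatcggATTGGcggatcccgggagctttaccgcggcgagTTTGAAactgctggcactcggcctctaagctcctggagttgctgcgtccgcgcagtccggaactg
Cdc20: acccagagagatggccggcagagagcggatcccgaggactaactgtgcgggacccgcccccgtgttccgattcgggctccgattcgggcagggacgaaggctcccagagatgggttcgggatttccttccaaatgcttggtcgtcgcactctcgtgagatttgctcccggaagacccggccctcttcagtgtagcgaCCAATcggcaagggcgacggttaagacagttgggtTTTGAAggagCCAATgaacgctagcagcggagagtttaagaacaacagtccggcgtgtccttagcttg
Cenpa: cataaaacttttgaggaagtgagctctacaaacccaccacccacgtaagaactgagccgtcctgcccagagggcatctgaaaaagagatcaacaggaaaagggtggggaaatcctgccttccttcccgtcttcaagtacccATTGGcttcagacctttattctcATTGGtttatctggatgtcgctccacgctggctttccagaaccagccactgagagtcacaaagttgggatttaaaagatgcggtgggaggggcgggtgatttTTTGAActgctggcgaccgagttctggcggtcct

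Ube2c had 1 CHR core and 6 CCAAT boxes in this window, of which the run CCAATTGG holds a box on each strand. Cdk1 had 2 CHR cores and 3 CCAAT boxes, and Cdc20 and Cenpa had 1 and 2. RefSeq promoters were matched for 32 of the 38 members, giving 35 promoters because Bub3, Ect2 and Prc1 have more than 1; those of Aurkb, Ccna2, Cdc25c, Incenp, Kif20a and Tpx2 were not used here. TTTGAA, searched on both strands, occurred in 26 of the 35 promoters, or 74.3% (95% exact binomial interval 56.7 to 87.5%), against 17.9% of all 32851 promoters of the same length. The interval treats promoters of the same gene as independent. CCAAT occurred in 27, or 77.1%, against 37.4%. Both were found in 65.7% of the members' promoters and in 6.95% of all promoters, and the motifs never overlapped each other in a member. The variant core TTCGAA occurred in 4 members' promoters, 11.4% against 1.56%.

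The CHR cores lay close to the start. TTTGAA was centred within 50 bases of it in 65.7% of the members' promoters and in 5.14% of all promoters, while CCAAT was as close in 51.4% against 14.0%. The median centre of the 34 CHR cores lay 13.5 bases before the start and that of the 62 CCAAT boxes 70.0 bases before it. The promoters of Bub3, Ect2 and Prc1 each repeat the same motifs at a constant shift, so their sites were counted more than once. Neither core nor box was found for Birc5, Mad2l1, Nuf2, Nusap1 and Pttg1. The 3 members with the largest fold changes did not share a pattern here. Mki67 had 2 CHR cores and 3 boxes, Cenpf had 1 and 2, and Cenpe had 1 box and no core. These matches describe letters in a window and do not show binding.

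**Figure D1:**
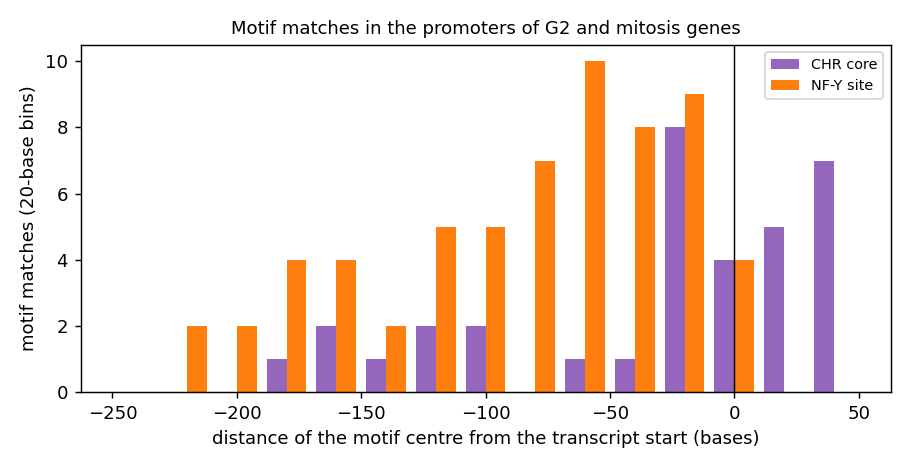
Number of motif matches in the 35 promoters of the members by distance of the match's centre from the annotated start, in bases, for the CHR core and for the CCAAT box bound by NF-Y. The CHR cores gather around the start, with 25 of 34 within 50 bases of it, and the NF-Y boxes lie farther before it.

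The cells were deeply sequenced and the members were well expressed. Libraries held between 19583312 and 23016735 estimated counts, and the median mean level of the members was 64.7 TPM (a level per transcript length and library total) against 21.4 TPM for all genes tested. Markers of myoblasts, 5 genes, summed to 2411 to 2470 TPM in PBS and to 2687 to 3026 TPM in 5-FU libraries. Most of this sum was Des, at means of 1806 TPM in PBS and 2069 TPM in 5-FU. Of the 5 myoblast markers only Cdh15 passed the threshold (log2 fold change 0.21, edgeR adjusted p = 0.0293), and Pax7 averaged 3.89 and 3.86 TPM. The 6 markers of differentiated muscle summed to 1425 to 1706 TPM in PBS and 1391 to 2392 TPM in 5-FU. Macrophage, endothelial and adipocyte markers summed to at most 8.54, 0.347 and 3.10 TPM in any library, and 3 of the 4 macrophage, all 3 endothelial and 3 of the 4 adipocyte markers stayed under 1 TPM throughout, though none was at 0 in every library. In bulk RNA, a change in the share of cells in G2 and M and a change in mRNA per cell cannot be told apart.

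Levels differed among the members far more than between the groups. The highest mean TPM over the 6 libraries belonged to Ube2c at 380.1, Cdk1 at 309, Pttg1 at 194 and Birc5 at 176. At the other end stood Cenpf at 2.03, Cenpe at 2.34, Ttk at 6.60 and Mki67 at 7.33 TPM. The genes with the lowest level per length thus include the 3 with the largest fold changes.

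By edgeR's quasi-likelihood test with Benjamini-Hochberg adjustment over all 12135 genes, 1 of the 38 members was higher in 5-FU at an adjusted p under 0.05, and none was lower. Among all genes tested, 7.14% were called, 3.87% higher and 3.26% lower, beside 2.63% of the members. Whether the members' share lay above or below that of all genes turned with the method: of 14 alternatives that used all 6 libraries it was above in 8 and below in 6, and with DESeq2 it was 10.5% against 7.52%. At an unadjusted p under 0.05 there were 7 members higher and 2 lower, 23.7% of them, against 23.8% of all genes. The PBS and 5-FU libraries did not overlap in CPM (counts scaled to the library's size) for 8 members, 21.1%, against 29.3% of all genes. The members' median log2 fold change was 0.03, with 22 above 0 and 16 below, beside a median of 0.00 for all genes tested. The range ran from -0.18 for Cdc25c to 0.71 for Cenpf.

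Most members were measured with narrow intervals. For 30 of the 38 members, 78.9%, the whole 95% interval of the fold change lay within 0.32 of 0 on the log2 scale, against 59.5% of all genes tested; this bound was chosen after the values were seen. The 8 members with wider intervals were Cdc25c, Ttk, Cenpe, Cenpf, Ndc80, Kif11, Nusap1 and Mki67. For 25 of 38 members the difference between group means was smaller than the larger of the 2 groups' SDs, 65.8% against 55.4% of all genes tested.

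**Figure D2:**
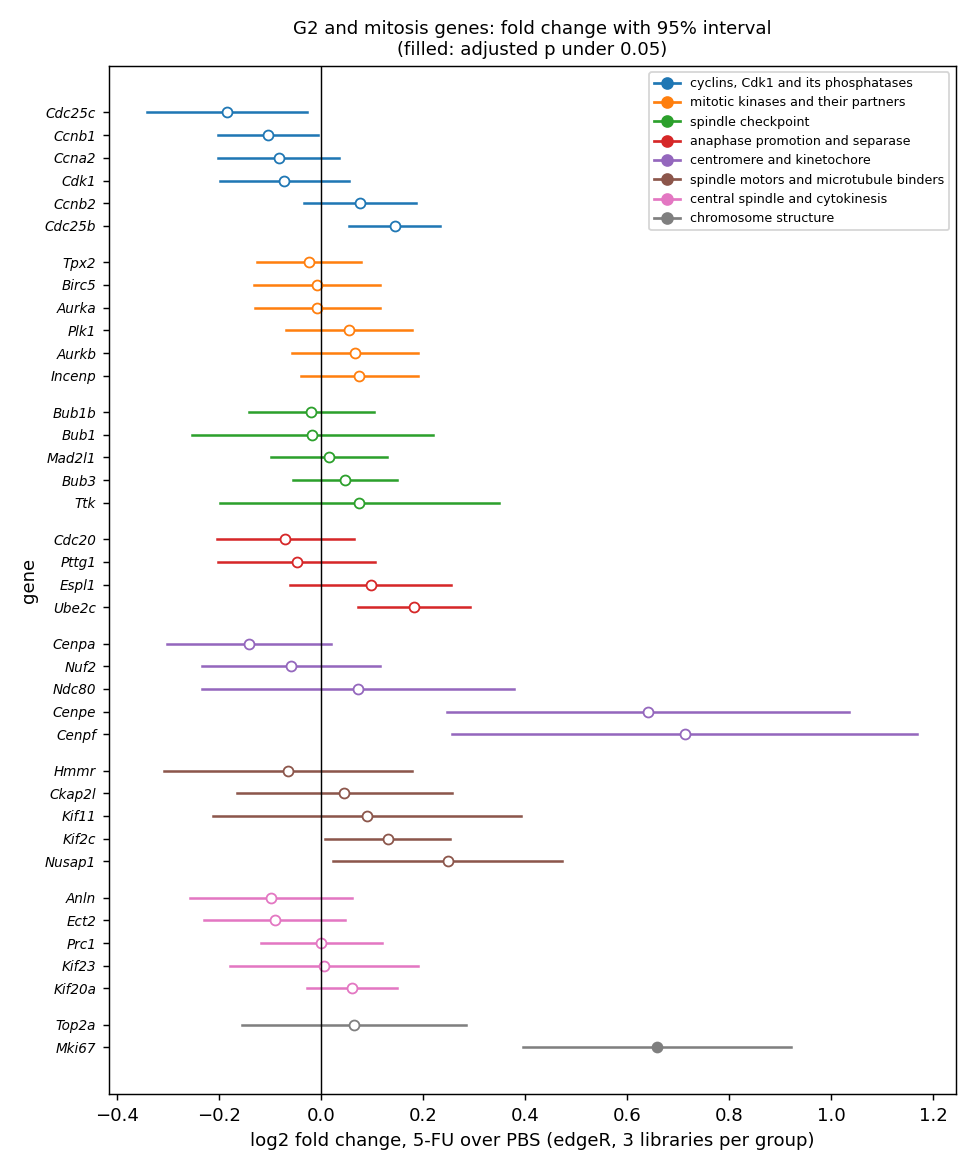
log2 fold change of each member, 5-FU over PBS, with its 95% interval derived from the edgeR test (3 libraries per group), grouped by role. A filled point marks an adjusted p under 0.05. Most points lie near 0, and Cenpe, Cenpf and Mki67 stand apart at 0.64, 0.71 and 0.66, with Mki67 alone filled.

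Among the cyclins, Cdk1 and its phosphatases, none of 6 passed the test, and the values pointed both ways. Cdk1, the kinase of mitotic entry, measured 212, 199.8 and 215 CPM in the PBS libraries and 217, 185 and 200.4 CPM in the 5-FU libraries. The groups overlapped, with the highest and the lowest library both in the 5-FU group, and the log2 fold change was -0.07 (95% interval -0.20 to 0.06, edgeR adjusted p = 0.484). Ccnb1, which encodes cyclin B1, its main mitotic partner, measured 154, 154 and 156 CPM in PBS and 151, 138 and 148 CPM in 5-FU. All 3 5-FU libraries lay below all 3 PBS libraries, yet the log2 fold change of -0.10 (SE 0.04) did not pass (edgeR adjusted p = 0.185). Cyclin B2 (Ccnb2) and cyclin A2 (Ccna2) had log2 fold changes of 0.08 and -0.08; reads of Ccna2 were partly divided between genes or transcripts in 4 libraries, so its value is less certain.

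The CDC25 phosphatases, which remove the inhibitory phosphates from Cdk1, pointed in opposite directions. Cdc25b measured 168, 166 and 160.5 CPM in PBS and 186, 180.4 and 186 CPM in 5-FU. The 5-FU libraries were all higher, by 0.14 (SE 0.04) on the log2 scale, but the gene fell short of the threshold (edgeR adjusted p = 0.0560). Cdc25c, expressed at a lower level, measured 24.2, 25.6 and 23.9 CPM in PBS and 21.7, 20.5 and 23.4 CPM in 5-FU. Here the 5-FU libraries were all lower, with a log2 fold change of -0.18 (SE 0.07, edgeR adjusted p = 0.141). The difference between the responses of the phosphatases was not tested.

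No mitotic kinase or kinase partner passed, and the 6 log2 fold changes ran only from -0.02 to 0.08. Plk1, which helps to trigger mitotic entry and acts at centrosomes and kinetochores, measured 117, 106 and 112 CPM in PBS and 121, 108 and 121 CPM in 5-FU. The groups overlapped, and its log2 fold change was 0.06 (95% interval -0.07 to 0.18, edgeR adjusted p = 0.586). Birc5 encodes survivin, the subunit that brings Aurora B to chromosomes, and measured 84.2, 82.4 and 89.5 CPM in PBS and 90.8, 79.5 and 86.7 CPM in 5-FU. Its group means of 85.3 ± 3.66 and 85.6 ± 5.73 CPM (SD, n = 3) were nearly equal. The kinases Aurka and Aurkb had log2 fold changes of -0.01 and 0.07, the Aurora A activator Tpx2 -0.02 and the Aurora B scaffold Incenp 0.08.

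The spindle checkpoint, which holds anaphase until every kinetochore is attached, also showed no call among its 5 genes. Bub3, an adaptor that recruits checkpoint proteins to kinetochores, was the most abundant and measured 126, 126 and 135 CPM in PBS and 138, 129 and 136 CPM in 5-FU. The groups overlapped, and the log2 fold change was 0.05 (95% interval -0.06 to 0.15, edgeR adjusted p = 0.576). The checkpoint kinases Bub1 and Ttk had log2 fold changes of -0.02 and 0.08, and Bub1b and Mad2l1, which hold Cdc20 inactive, of -0.02 and 0.02. The interval for Ttk, from -0.20 to 0.35, was among the wider ones at a mean of only 8.99 CPM in PBS.

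Of the 4 genes that act in the release of sister chromatids, Ube2c came closest to the threshold. Ube2c, the ubiquitin-conjugating enzyme of the anaphase-promoting complex, measured 172, 171 and 175 CPM in PBS and 213, 187 and 193 CPM in 5-FU. Every 5-FU library was above every PBS library, and the log2 fold change was 0.18 (SE 0.05, edgeR adjusted p = 0.0502). It was called in 9 of 20 alternatives, among them DESeq2 (adjusted p = 0.0278) and the edgeR fit with length and GC offsets (0.21, adjusted p = 0.00345). Its counts were not whole in any of the 6 libraries, so some reads were divided with another gene or transcript. The complex's activator Cdc20 had a log2 fold change of -0.07, securin (Pttg1) of -0.05 and separase (Espl1), the protease that securin holds in check, of 0.10.

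The centromere and kinetochore genes held the widest spread of fold changes. Cenpa, the histone H3 variant that marks the centromere, measured 75.6, 75.7 and 80.4 CPM in PBS and 78.4, 61.9 and 71.6 CPM in 5-FU. 5-FU replicate 2 was the lowest and 5-FU replicate 1 lay within the PBS range, and the log2 fold change was -0.14 (95% interval -0.30 to 0.02, edgeR adjusted p = 0.269). Ndc80 and Nuf2, which together form the microtubule-binding arm of the kinetochore, had log2 fold changes of 0.07 and -0.06.

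Cenpe, a kinesin that moves chromosomes to the spindle equator, was a low gene with 142 to 308 estimated counts per library. It measured 6.74, 6.41 and 8.44 CPM in PBS and 8.52, 11.1 and 14.4 CPM in 5-FU. The groups did not overlap, but 5-FU replicate 1 was barely above PBS replicate 3. The log2 fold change was 0.64 (SE 0.18, 95% interval 0.25 to 1.03), with an edgeR adjusted p of 0.0551. Cenpf, a large protein of the outer kinetochore and nuclear envelope, measured 7.08, 6.95 and 11.5 CPM in PBS and 10.3, 15.7 and 16.3 CPM in 5-FU. PBS replicate 3 lay above 5-FU replicate 1, so the groups overlapped, and the log2 fold change of 0.71 (SE 0.21) had an edgeR adjusted p of 0.0625.

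Spindle motors and microtubule binders showed no call among 5 genes. Kif2c, a kinesin that depolymerizes microtubules to correct faulty attachments, measured 78.0, 79.1 and 80.2 CPM in PBS and 89.3, 80.2 and 92.8 CPM in 5-FU. The 5-FU libraries were higher, though replicate 2 only just, and the log2 fold change was 0.13 (SE 0.06, edgeR adjusted p = 0.177). Nusap1, which bundles microtubules near chromosomes, measured 21.6, 24.4 and 26.7 CPM in PBS and 24.9, 31.4 and 31.1 CPM in 5-FU. Its groups overlapped, with a log2 fold change of 0.25 (SE 0.10, edgeR adjusted p = 0.165). Kif11, the kinesin that pushes spindle poles apart, had a log2 fold change of 0.09, the spindle protein Ckap2l of 0.05 and the microtubule-binding hyaluronan receptor Hmmr of -0.06.

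In the central spindle and cytokinesis group the 5 log2 fold changes lay between -0.10 and 0.06. Kif20a, a kinesin of the central spindle, was the most abundant of them per library, at 255, 251 and 253 CPM in PBS and 274, 257 and 268 CPM in 5-FU. The groups did not overlap, but the difference was small, at a log2 fold change of 0.06 (95% interval -0.03 to 0.15, edgeR adjusted p = 0.393). The microtubule bundler Prc1 and its partner kinesin Kif23 had log2 fold changes of 0.00 and 0.01, the RhoA activator Ect2 of -0.09 and the contractile ring scaffold anillin (Anln) of -0.10. The counts of Kif20a and Prc1, like those of Ube2c, were not whole in any library.

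The remaining pair act on chromosome structure. Top2a, the topoisomerase that untangles sister DNA, measured 117, 106 and 137 CPM in PBS and 108, 133 and 139 CPM in 5-FU. Libraries varied more within each group than the groups differed, and the log2 fold change was 0.07 (95% interval -0.15 to 0.28, edgeR adjusted p = 0.729).

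Mki67 measured 27.9, 24.8 and 32.7 CPM in PBS and 38.1, 45.3 and 52.8 CPM in 5-FU. Every 5-FU library was above every PBS library. The mean rose from 28.5 ± 3.99 to 45.4 ± 7.33 CPM (SD, n = 3), a log2 fold change of 0.66 (SE 0.12, 95% interval 0.40 to 0.92) with an edgeR adjusted p of 0.00904. Per length it remained a low gene, at 5.58 TPM in PBS and 9.07 TPM in 5-FU on average. The call was lost without PBS replicate 2, where the log2 fold change was 0.57 and the edgeR adjusted p 0.0526. It was kept in the other 5 fits that left out a library.

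**Figure D3:**
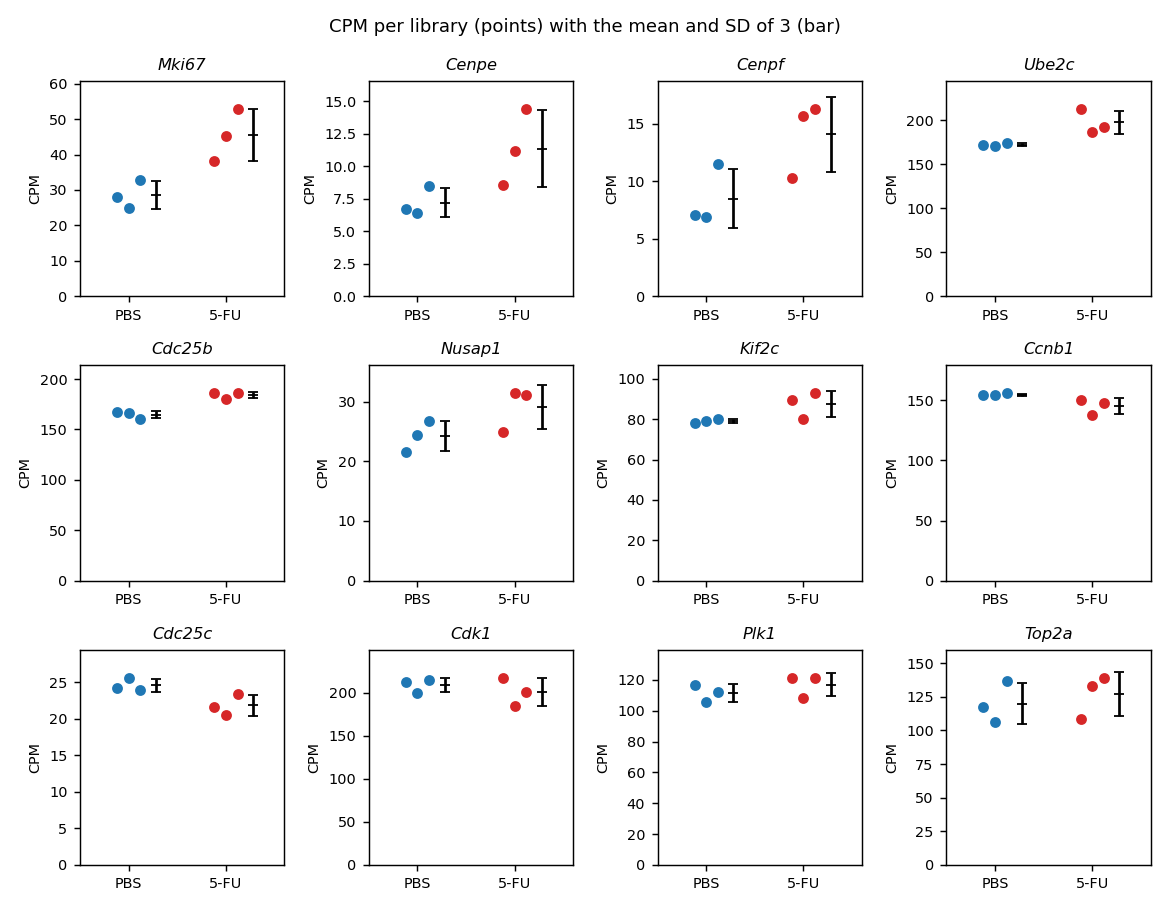
CPM in each library (points) with the mean and SD of 3 (bar) for members given library by library; each y axis starts at 0. Mki67 separates the groups, from 24.8 to 32.7 CPM in PBS and 38.1 to 52.8 CPM in 5-FU, while Cdk1 and Top2a overlap.

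In the authors' deposited table of 186 genes, 3 members were listed. The smallest log2 ratio in that table was 0.585 in size, so it appears to be cut by size. The members not listed had edgeR log2 fold changes of only -0.18 to 0.25, so their absence says nothing about their p-values. Knl1, not a member, was listed with an FDR of 0.140, so a listing is not a call at 0.05. The authors' log2 ratios of mean TPM were 0.70 for Mki67, 0.69 for Cenpe and 0.76 for Cenpf, with FDR values of 3.26e-06, 0.0206 and 0.0117. Applied to the same counts, DESeq2 gave unadjusted p-values for these genes that match those of the authors' deposited table to the digits shown there, such as 1.95e-08 for Mki67. edgeR calls only Mki67 of the 3, and DESeq2 calls all 3 and Ube2c.

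Mki67, Cenpe and Cenpf also share a property that the choice of genes did not use: they have the longest transcripts of the group. Their longest coding transcripts in GENCODE M21 are 10061, 7910 and 11130 bases. Relative length, taken from the data as estimated count over TPM, was 107 for Mki67, 84.2 for Cenpe and 118 for Cenpf, followed by Espl1 at 62.6, Top2a at 55.7 and Kif11 at 51.4. Without these 3 genes the median log2 fold change of the members was 0.01.

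Longer transcripts tended to higher fold changes over all genes tested as well. Split at the members' median relative length, the 5807 longer genes tested had a median log2 fold change of 0.03 and 5.42% were called higher, against -0.02 and 2.45% for the 6328 shorter genes. The longer and the shorter 19 members had medians of 0.07 and -0.01. By library, the longer genes' median deviation from their own means was 0.01, -0.01 and -0.05 in log2 CPM in PBS. In 5-FU it was -0.02, 0.04 and 0.03, so the groups overlapped. The longer members overlapped too, at -0.03, -0.11 and 0.04 in PBS and -0.06, -0.02 and 0.15 in 5-FU. Among the 354 tested genes at least as long as Cenpe, the median was 0.13, with quartiles of 0.03 and 0.26, and 39 genes were called higher and 3 lower. Mki67, Cenpe and Cenpf stood at the 97.2nd, 96.3rd and 98.0th percentile of those 354 genes. These 3 genes and the cut at the length of Cenpe were picked after the values were seen. High percentiles were therefore partly set by that choice. When the fit was given offsets for length and GC content, the log2 fold changes were 0.55 for Mki67 (edgeR adjusted p = 0.0107), 0.59 for Cenpe (0.0351) and 0.60 for Cenpf (0.0649). Cenpe thus passed in that fit and Cenpf did not; Ube2c, one of the shortest members, and Nusap1 passed in it as well.

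**Figure D4:**
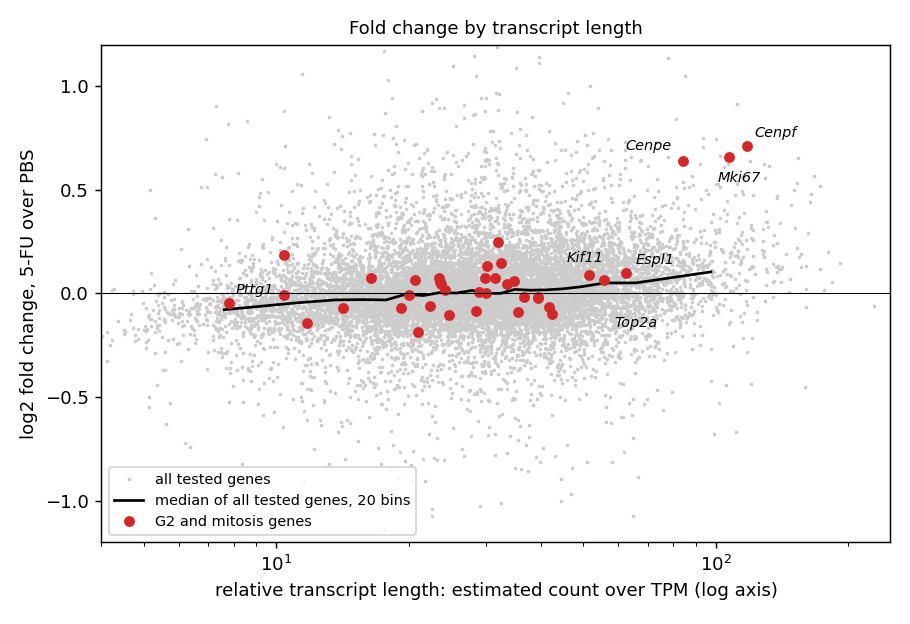
log2 fold change (5-FU over PBS) against relative transcript length (estimated count over TPM, log axis) for all tested genes in grey and the members in red, with the median of all genes in 20 bins as a line; genes beyond 1.2 in either direction are not drawn. The line climbs with length, and Cenpe, Mki67 and Cenpf lie above it at the long end.

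Library by library, the members moved together in some pairs of libraries and split near evenly in others. Between groups, 34 of 38 members were higher in 5-FU replicate 3 than in PBS replicate 2. Only 21 of 38 were higher in 5-FU replicate 1 than in PBS replicate 1. In PBS replicate 2, 36 of the 38 members were lower than in PBS replicate 3, and in 5-FU replicate 2, 36 of 38 were lower than in 5-FU replicate 3; over all genes tested the shares were close to even, at 49.6% for the PBS libraries. These pairs were picked after the values were seen. Over all 6 pairs of libraries of the same group, the members' median difference was 0.07 to 0.15 in size on the log2 scale, and over the 9 pairs of a PBS and a 5-FU library it was 0.02 to 0.17. The summed TPM of the 38 members was 3186, 2996 and 3183 in the PBS libraries and 3290, 3087 and 3311 in the 5-FU libraries, which overlap. Replicate 2 was the lowest of each group in this sum. What these libraries share was not tested. The sign of the median between treatments rested on single libraries: it was -0.03 without PBS replicate 2 and -0.02 without 5-FU replicate 3.

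**Figure D5:**
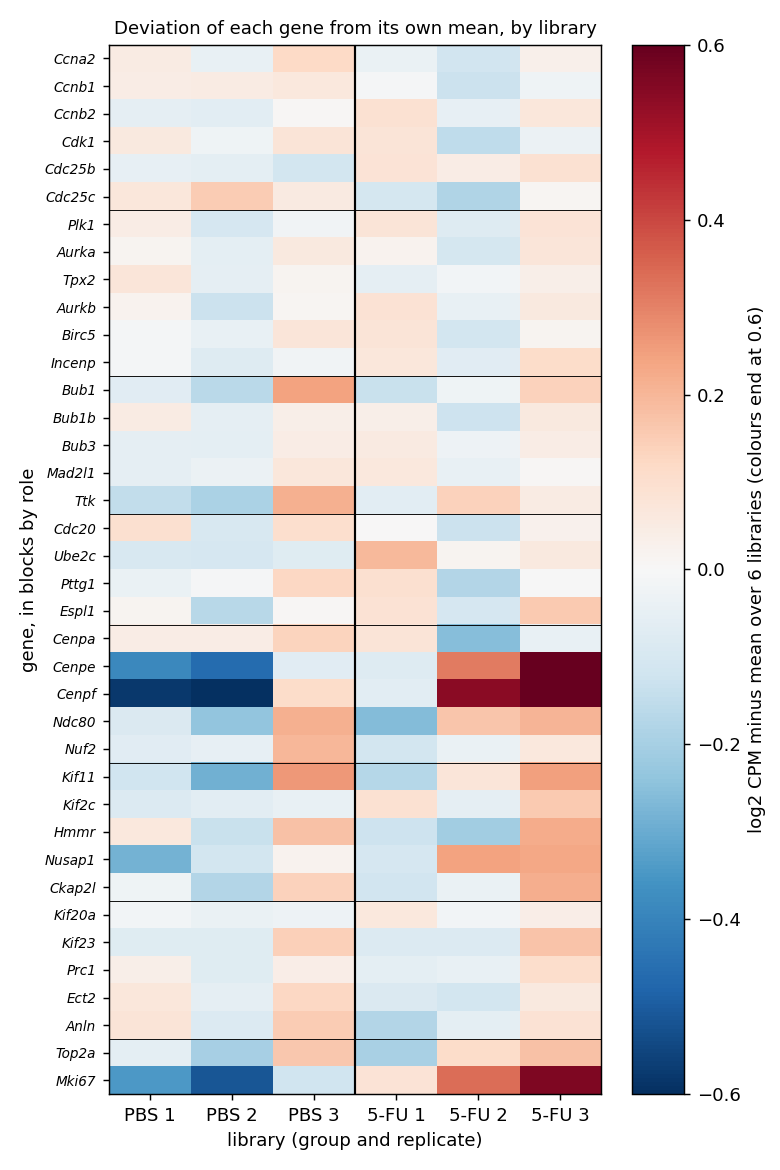
Deviation of each member from its own mean over the 6 libraries, in log2 CPM, with rows for genes and columns for libraries; colours end at 0.6 in either direction. PBS replicate 2 holds the lowest value of 18 members and 5-FU replicate 3 the highest of 15.

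Further genes of the same pathway were counted from lists made with earlier results of these data known. Of 56 other G2 and mitosis genes, 7 rose and 1 fell, with a median log2 fold change of 0.08 and 38 above 0. These are 12.5% higher and 1.79% lower, against 3.87% and 3.26% of all genes tested, and 67.9% above 0 against 50.3%. The genes that rose were Gtse1, a microtubule-binding regulator of p53 (0.43, edgeR adjusted p = 0.00263), the plus-end kinesin Kif18b (0.37), the Ndc80 complex subunit Spc24 (0.32), the spindle protein Troap (0.31), cyclin F (Ccnf, 0.28), the chromatin-bound phosphatase adaptor Cdca2 (0.27) and the Cenpa chaperone Hjurp (0.25). Lmnb1, which encodes lamin B1 of the nuclear envelope, fell by 0.20 on the log2 scale (edgeR adjusted p = 0.0233).

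Gtse1 measured 55.7, 57.4 and 61.0 CPM in PBS and 82.1, 71.9 and 82.3 CPM in 5-FU, and Hjurp 147, 136 and 129 CPM and 168, 160.4 and 166 CPM. Both separated the groups, while Cenpa, the histone that Hjurp deposits, did not. Uncalled genes of the list with an unadjusted p under 0.05 pointed both ways, 7 higher and 3 lower. With the called genes, 14 of the 56 were higher and 4 lower at that threshold, against 23.8% of all genes tested in either direction. The kinetochore scaffold Knl1 had a log2 fold change of 0.69 (edgeR adjusted p = 0.0864). The Cdk1-binding subunit Cks2 had -0.21 (edgeR adjusted p = 0.0507), and the kinetochore genes Zwint and Cenpw had -0.16 and -0.43 (edgeR adjusted p = 0.0822 and 0.0970). The spindle pole gene Aspm, the only gene of this list at least as long as Cenpe, had 0.40 (edgeR adjusted p = 0.0801).

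Of 14 regulators of these promoters, 1 rose and none fell. That is 7.14% called, the same share as the 7.14% of all genes tested. Nfya, a subunit of the CCAAT-binding factor NF-Y, measured 44.5, 42.8 and 38.3 CPM in PBS and 50.8, 50.3 and 47.8 CPM in 5-FU. Its groups did not overlap, and the log2 fold change was 0.23 (SE 0.06, edgeR adjusted p = 0.0486), just inside the threshold. Foxm1, the activator of G2 and M genes, had a log2 fold change of 0.06, the MuvB subunit Lin37 0.27 (edgeR adjusted p = 0.0675) and B-MYB (Mybl2) -0.17 (edgeR adjusted p = 0.240). Neither the 17 genes of the anaphase-promoting complex nor the 17 of condensin and cohesin held a call in edgeR. At an unadjusted p under 0.05 there were 2 of 17 lower in the first list and 1 of 17 higher in the second. Among all genes tested, 23.8% reached that threshold in either direction. The lowest p-values belonged to the complex subunit Anapc13 (-0.28, edgeR adjusted p = 0.0919) and the condensin subunit Ncapd2 (0.14, edgeR adjusted p = 0.107).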

How the data were processed

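mRNA was measured in 6 libraries of C2C12 cells, made with a NEBNext Ultra RNA kit from Trizol-extracted RNA, per the labels' protocols; no strand-marking step is described, so reads of a gene and an antisense partner cannot be told apart. Per the file headers, the authors deposited an estimated count and a TPM value for each gene and library, and no normalization of the estimated counts is described. A second deposited table gives group mean TPM, a log2 ratio, a p-value and an FDR for 186 genes. The submitters' processing notes list StringTie 1.3.1 with no role. Aligner, genome build and annotation: not given in the sources used here.

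The estimated counts were rounded and tested in R 4.3.3 with edgeR 4.0.16: filterByExpr (minimum count 10, total 15), TMM scaling, a two-sided quasi-likelihood test, 5-FU against PBS over all 6 libraries, and Benjamini-Hochberg adjustment over all 12135 genes, with a call at an adjusted p under 0.05. Fold changes are shrunk slightly by edgeR's prior count, most in low genes. The test itself returns no SE. Each SE was derived as the size of the log2 fold change over the square root of the test's F statistic. Intervals are that SE times a t quantile on either side of the log2 fold change. CPM values are estimated counts scaled to the library's total alone, without TMM scaling. The log2 CPM deviations by library and the median differences between pairs of libraries do carry TMM scaling. The fit was also run on simulated counts with planted changes. Its recovery of changes as small as those of most members is not reported here. Alternatives used DESeq2 1.42.0, limma 3.58.1 on log2(TPM + 1) with genes of at least 1 TPM on average, other scalings and filters, offsets for length and GC (GENCODE M21 transcripts) and single libraries left out. Chi-square values per degree of freedom between replicates ran from 3.13 to 7.75, so no libraries were duplicates. The members and lists were chosen with earlier results of these data known. Members were given library by library if called, at an unadjusted p under 0.05, of highest mean TPM in a role group, or if they were Ccnb1, Cdk1, Plk1, Top2a or Mki67; from other lists the called genes, or else the gene of lowest p. Knl1, Aspm, Cks2, Zwint, Cenpw, Lin37, Foxm1 and Mybl2 were named after their values were seen.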

Additional observations from a re-analysis of the deposited data

How the results depend on the processing

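The median log2 fold change of the 38 members kept its sign in every alternative that used all 6 libraries, and left-out libraries moved it between -0.03 and 0.07. The number of members called, 1 in the analysis reported, was more sensitive. It was 4 with DESeq2, with library size alone as scaling, with no filter on low counts and with length and GC offsets, 3 with a mean of at least 5 CPM and with limma on log2(TPM + 1) or log2(TPM + 0.1), and 0 with a test against a fold of 1.2 (edgeR's glmTreat) or with log2(TPM + 1) and no filter, where 10 members had an unadjusted p under 0.05. Over all genes these settings called 7.52%, 7.48%, 6.57%, 9.53%, 8.44%, 4.67%, 4.53%, 0.247% and 0.979%, in that order. Leaving out single libraries gave 0 to 4: 0 without PBS replicate 2, 4 without 5-FU replicate 1 and 2 without PBS replicate 3 or 5-FU replicate 2. Over all genes these fits called 2.04%, 5.38%, 3.88% and 4.08%, in that order. With the replicate number as a block, 5 members and 1199 genes were called, against 866 genes without it. Same-numbered libraries correlated at -0.00163, 0.0868 and 0.132, not every library correlated best with its own number, and nothing in the labels ties the numbers together. Mki67 was absent from the calls only in the settings that gave 0, with adjusted p-values of 0.167 against a fold of 1.2 (glmTreat), 0.0950 for limma with no filter and 0.0526 without PBS replicate 2 (edgeR). Of the further lists, 9 genes were called; this was 1 at an adjusted p under 0.01, 0 against a fold of 1.2, 2 with log2(TPM + 1) and no filter, and 1 to 8 with single libraries left out, the lowest without PBS replicate 2 and 2 without 5-FU replicate 3. The causes were not tested. Promoter shares moved from 74.3% to 71.4% for the CHR core with a window of 150 bases before the start. Members with few counts included Cenpe and Cenpf, at 142 to 349 estimated counts per library, and Ttk, at 174 to 220.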
